A study of Mus musculus with 20 samples.

Results

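The genes that make, convert and consume NAD were examined in the heart apex of mice with AL amyloidosis, with Nmrk2, a nicotinamide riboside kinase, at their head. The 10 genes were Nmrk2, Nmrk1, Nampt, Naprt, Nmnat1, Nmnat3, Nadsyn1, Nadk, Nadk2 and Cd38, found by gene name in the table of estimated counts, where they took 11 of 25308 entries because Nadk2 is listed under 2 gene identifiers. All 11 entries passed the filter on low counts. The list was chosen by measured values of these mice, so that differences of its genes between AL mice and the other mice are given as descriptions. No p-value is printed for them, other than for how they differed between sequencing runs, and nothing is read from which of them passed a threshold.

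RNA of the heart apex was sequenced from 20 mice of both sexes, adults of over 3 months, in 3 groups. The 9 AL mice were λS-DH mice, in which both copies of the Ig kappa locus hold λS, the human light chain gene of a patient with AL amyloidosis, and had amyloid deposits in the heart after 1 intravenous injection of λS variable domain, as fibrils or in soluble form. The 4 LS mice were λS-DH mice that had not been induced and had no amyloid. The 7 Ctrl mice were DH mice without the human gene. All 3 groups shared the DH-LMP2A alleles, with which plasma cells develop in the absence of Ig heavy chains, and AL and LS mice shared the λS gene, which B-lineage cells express. The ages of single mice and the form injected into each AL mouse are not given in the sources used here, and AL and LS mice differ by the injection as well as by amyloid. The first sequencing run held AL1 to AL7, all 4 LS mice and Ctrl1 to Ctrl4, and the second held AL8, AL9 and Ctrl5 to Ctrl7.

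Estimated counts summed to 43993277 to 62668146 per mouse in the first run and to 7867642 to 11794615 in the second, and a floor of 3 counts corresponded to 0.0474 to 0.356 CPM (counts as a rate of the mouse's library size scaled by TMM, multiplied by 1e6). Igkc, the mouse gene of the targeted locus, had 0 to 6 counts in AL mice, 0 to 4 in LS mice and 0 to 274 in Ctrl mice. Xist, an RNA of female cells, was over 10 CPM in 8 mice (3 Ctrl, 2 LS and 3 AL). All 8 were of the first run, and mice of the second run had at most 0.199 CPM. Run and sex are thus partly confounded, and the part of sex in differences between runs was not tested for single genes. The 12 cardiomyocyte genes examined, Myh6 and Actc1 among them, were present in all groups, with summed levels of 70471 to 92495 CPM in Ctrl mice, 74431 to 82396 in LS mice and 57218 to 91337 in AL mice. Levels of the 12 liver genes examined differed most between mice, with albumin (Alb) at 93.4 to 215 CPM in Ctrl1, Ctrl3, Ctrl4, LS1 and LS3 and at 0.0769 to 21.7 CPM in the other mice. In a bulk sample such as this, fewer cells of a type and less RNA per cell cannot be told apart.

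NAD carries electrons in oxidative metabolism and is consumed by sirtuins, PARPs and CD38, which release nicotinamide. Cells rebuild NAD from nicotinamide through NAMPT, from nicotinamide riboside through the kinases NMRK1 and NMRK2, from nicotinic acid through NAPRT and, mainly in the liver, from tryptophan. NMRK2 is found mostly in striated muscle, and the adult heart depends mainly on the NAMPT route.

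Nmrk2 (ENSMUSG00000004939) lies on chromosome 10, from 81198170 to 81202051 on the minus strand of GRCm38, and Nmrk1 (ENSMUSG00000037847), which encodes the enzyme of the same reaction in most tissues, on chromosome 19, from 18631950 to 18652428 on the plus strand. The bases upstream of their starts are shown because all AL mice lay above all other mice in Nmrk2 but not in Nmrk1. They come from RefSeq promoter windows of GRCm38.p6, which span 250 bases before and 50 after a gene's start, and are printed up to the earlier start of the GENCODE M21 annotation, 14 bases before the RefSeq start in Nmrk2 and 66 in Nmrk1. Capitals mark a TATA box, the 6 letters TATAAA. The Nmrk2 stretch is chr10:81202052-81202287 on the minus strand, and the Nmrk1 stretch is chr19:18631766-18631949 on the plus strand.
Nmrk2: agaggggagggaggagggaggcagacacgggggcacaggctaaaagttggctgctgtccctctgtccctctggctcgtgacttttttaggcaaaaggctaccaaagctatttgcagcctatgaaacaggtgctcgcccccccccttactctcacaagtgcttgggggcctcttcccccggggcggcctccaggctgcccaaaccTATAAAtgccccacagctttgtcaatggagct
Nmrk1: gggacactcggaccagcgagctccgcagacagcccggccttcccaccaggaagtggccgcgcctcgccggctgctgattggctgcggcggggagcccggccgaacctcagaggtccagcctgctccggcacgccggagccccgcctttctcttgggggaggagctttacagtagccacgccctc

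In the Nmrk2 window the TATA box began 46 bases before the RefSeq start, and the Nmrk1 window had none. TATAAA was present on either strand in 13.6% of all 32851 windows of 300 bases, and in 1 of the 10 windows of 8 of the genes listed. Naprt and Nadk2 were not matched in the promoter table. The E-box CACGTG, which the clock factors CLOCK and BMAL1 bind, was present in 7.15% of all windows and, among the 8 genes, in 1 window of Nadk, 40 bases before its start. The CArG box, which the muscle factor SRF binds, was present in 1.63% of all windows and in 0 of these 10. No match says only that these letters are not in these windows.

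Nmrk2 had a higher level in every AL mouse than in every LS and Ctrl mouse. Ctrl1 to Ctrl7 had 6.74, 3.119, 4.36, 1.73, 2.26, 3.88 and 2.38 CPM, and LS1 to LS4 had 7.21, 3.85, 6.76 and 2.75 CPM. AL1 to AL9 had 58.1, 11.1, 11.0, 9.86, 9.33, 23.6, 30.01, 10.3 and 33.9 CPM. The lowest AL mouse stood 1.30 times above the highest of the 11 other mice, while AL mice spread 6.23-fold among themselves. AL levels fell apart into 5 mice between 9.33 and 11.1 CPM and 4 mice between 23.6 and 58.1 CPM, with a mouse of the second run on either side. The 3 AL mice of high Xist (AL2, AL3 and AL4, at 269 to 352 CPM) were all among the lower 5. Xist was at most 1.32 CPM in the other AL mice, among them all 4 of high Nmrk2. Summed levels of the 12 macrophage genes examined also lay apart, at 511 to 764 CPM in these 4 and 199 to 421 CPM in the lower 5. Those of the cardiomyocyte and of the fibroblast genes overlapped. Comparisons of these 4 and 5 mice carry both differences, and the part of sex or of cell composition in them was not tested. Mean levels were 21.9 ± 16.6 CPM in AL mice (SD, n = 9), 5.14 ± 2.18 in LS mice (n = 4) and 3.50 ± 1.71 in Ctrl mice (n = 7).

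With run in the model, the log2 fold change of Nmrk2 was 2.60 (SE 0.45), 6.06-fold, for AL against Ctrl mice and 2.14 (SE 0.54), 4.41-fold, for AL against LS mice. Within the first run it was 2.45 (SE 0.57) against Ctrl and 2.09 (SE 0.56) against LS, and within the second run, which held 2 AL and 3 Ctrl mice, 3.01 (SE 0.51) against Ctrl. The difference between AL and Ctrl mice did not differ detectably between runs (interaction on the log2 scale of 0.52, SE 1.01, edgeR FDR = 0.857), where 0.684% of all genes passed an FDR of 0.05. With so few mice in the second run and an SE of this size, the test cannot show that the runs were alike. LS and Ctrl mice overlapped in Nmrk2, with a log2 fold change of 0.46 (SE 0.53, edgeR FDR = 0.951) in the fit of all mice and of 0.36 (SE 0.41, edgeR FDR = 0.882) in a fit of LS and Ctrl mice only.

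**Figure D1:**
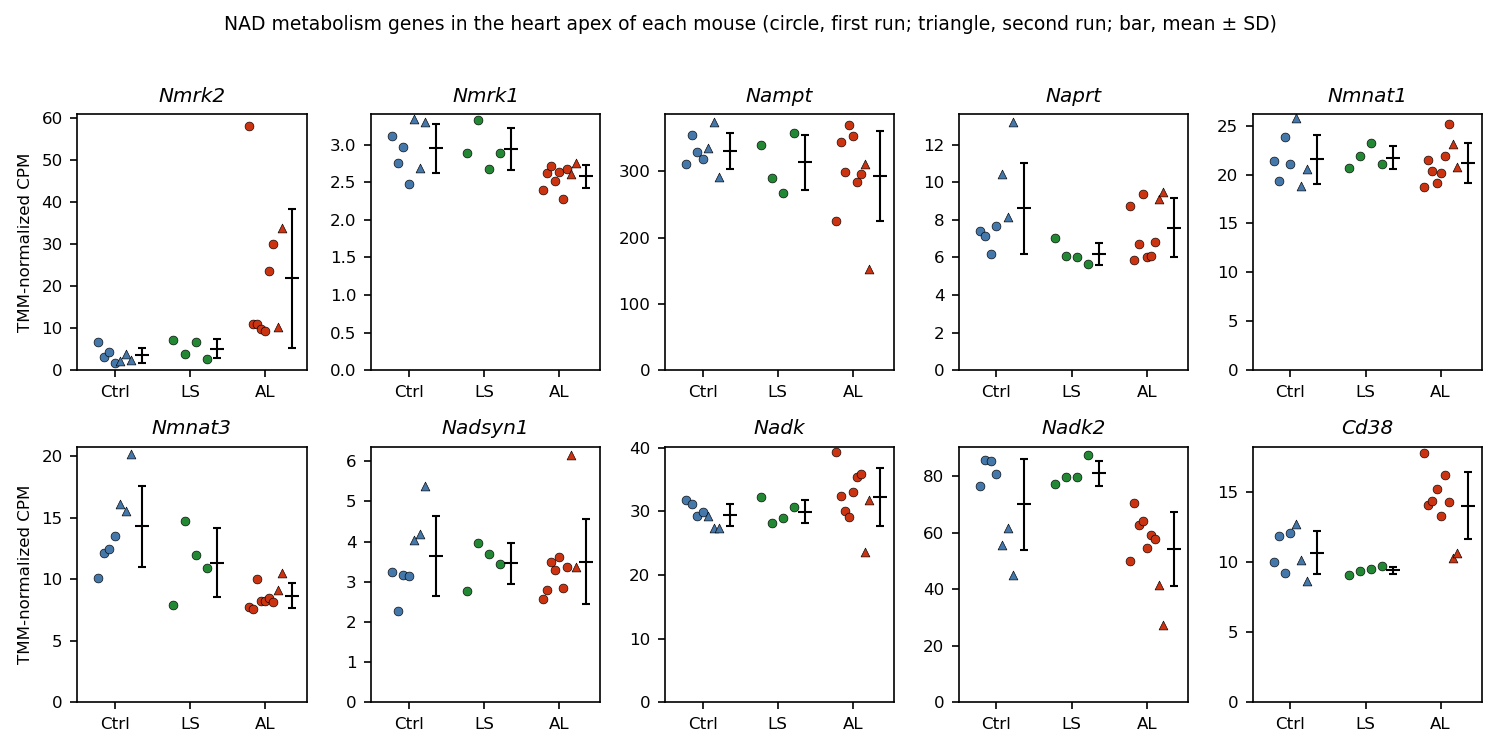
TMM-normalized CPM (vertical axes, from 0) of the 10 genes in each Ctrl, LS and AL mouse. Circles are mice of the first sequencing run, triangles mice of the second, and bars the mean ± SD of each group. All 9 AL mice lie above the other 11 mice in Nmrk2, and Nadk2 is lower in the second run in both AL and Ctrl mice.

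The other nicotinamide riboside kinase, Nmrk1, was low and even. Its lowest, median and highest levels were 2.27, 2.63 and 2.75 CPM in AL mice and 2.48, 2.97 and 3.35 CPM in Ctrl mice, and LS1 to LS4 had 2.88, 3.32, 2.67 and 2.89 CPM. AL mice overlapped Ctrl and LS mice, with log2 fold changes of -0.17 (SE 0.09) and -0.21 (SE 0.11). Levels were also divided by exon length (1854 bases of merged exons for Nmrk2 and 3689 for Nmrk1). Merged exons span all annotated forms, so these values are not shares of transcripts. Per kilobase, Nmrk2 made up 57.4% to 81.2% of the summed level of both kinases in Ctrl mice. Its part was 65.5% to 83.5% in LS mice and 87.6% to 98.0% in AL mice. The level of Nmrk2 per kilobase thus averaged 2.36 ± 1.10 times that of Nmrk1 in Ctrl mice (SD, n = 7), 3.55 ± 1.69 times in LS mice (n = 4) and 17.2 ± 13.6 times in AL mice (n = 9).

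Nampt, which encodes the enzyme that turns nicotinamide into nicotinamide mononucleotide, was the most abundant of the 10 genes per kilobase. Its lowest, median and highest levels were 292, 329 and 375 CPM in Ctrl mice, LS1 to LS4 had 340, 290, 267 and 357 CPM, and AL1 to AL9 had 226, 345, 299, 369, 353, 284, 295, 312 and 153 CPM. Groups overlapped, with a log2 fold change of -0.22 (SE 0.14) for AL against Ctrl and of -0.07 (SE 0.16) for AL against LS. The lowest levels of all 20 mice were those of AL9 and AL1, which had the highest levels of Nmrk2. The 4 AL mice of high Nmrk2 had 153 to 295 CPM of Nampt, and the other 5 had 299 to 369 CPM. The summed macrophage genes given above also parted these 4 from the other 5. No correlation within AL mice is given, because their Nmrk2 levels lie in separate clusters of 4 and 5 mice that were seen in these same values. Per kilobase, Nampt exceeded Nmrk2 by 41.2 ± 16.8 times in Ctrl mice (SD, n = 7), 26.7 ± 15.0 times in LS mice (n = 4) and 7.91 ± 5.10 times in AL mice (n = 9), down to 1.42 times in 1 AL mouse.

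In LS and Ctrl mice, centred within groups, no relation was detectable. Nmrk2 and Nampt had a Pearson's r of -0.17 (permutation p = 0.604) and a Spearman's rho of -0.29 (permutation p = 0.382), n = 11. Nmrk2 and Nadk had an r of 0.10 (permutation p = 0.774) and a rho of 0.03 (permutation p = 0.947). Of 9 relations of Nmrk2 with the other genes, the lowest adjusted permutation p was 0.581 for r and 0.434 for rho. Without Ctrl1 and Ctrl4, the mice farthest from the median of Nmrk2, r was -0.20 for Nampt and -0.14 for Nadk, and within the first run (n = 8) r was -0.31 for Nampt (exact permutation p = 0.445) and 0.30 for Nadk (exact permutation p = 0.462).

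**Figure D2:**
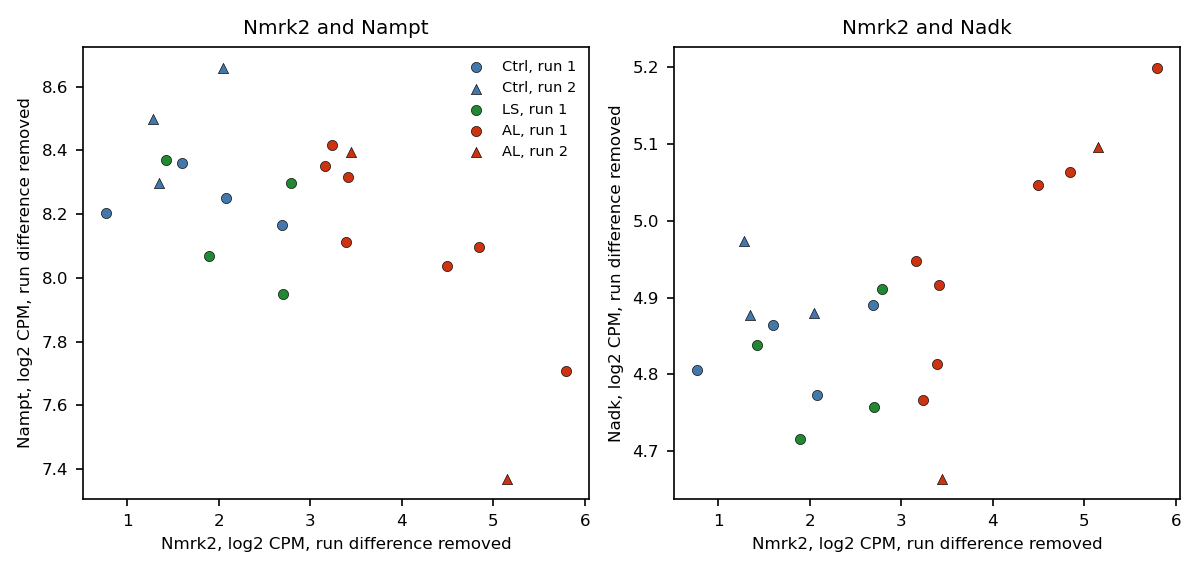
Log2 CPM of Nmrk2 (horizontal axes) against log2 CPM of Nampt (left) and Nadk (right), after removal of the difference between runs. Each point is a mouse, coloured by group, with circles for the first run and triangles for the second. The 4 AL mice of highest Nmrk2, on the right of each panel, have lower Nampt and higher Nadk than the other 5 AL mice. In CPM, Nmrk1, Naprt, Nmnat1, Nmnat3, Nadsyn1, Nadk2, Cd38 and also Nadk overlapped between these 4 and 5 mice, a split read from these same Nmrk2 values. All 3 AL mice of high Xist are among those 5.

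Nampt is also a target of the circadian clock, and hours of tissue collection are not given in the sources used here. Of 15 clock genes tested, 0 rose and 1 fell in AL against Ctrl mice, and 3 rose and 2 fell against LS mice. Of all tested genes, 4.1% rose and 3.71% fell against Ctrl, and 5.86% rose and 3.03% fell against LS. Tef, the most abundant of them, averaged 182 CPM in AL, 125 in LS and 192 in Ctrl mice. The part of clock phase in the Nampt values was not tested.

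Naprt, whose enzyme starts the nicotinic acid route, overlapped between all groups, at 5.86 to 9.47 CPM in AL mice, 5.62 to 7.02 in LS mice and 6.18 to 13.2 in Ctrl mice. Its log2 fold change was -0.06 (SE 0.12) for AL against Ctrl and 0.18 (SE 0.14) for AL against LS. Naprt was higher in the second run by 0.50 on the log2 scale (SE 0.13, edgeR FDR = 0.00401), and shares 277 exon bases with Eef1d on the same strand, so that reads there could have been split. Nadsyn1, which amidates nicotinic acid adenine dinucleotide to NAD as the last step of that route, had 2.58 to 6.16 CPM in AL mice, 2.76 to 3.95 in LS mice and 2.28 to 5.38 in Ctrl mice, and its groups overlapped as well. Nadsyn1 rose by 0.60 (SE 0.14, edgeR FDR = 0.00224) in the second against the first run.

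Nmnat1 and Nmnat3 encode enzymes that join nicotinamide mononucleotide to AMP. Nmnat1, the nuclear enzyme, was even, with means of 21.2 ± 2.01 CPM in AL mice (SD, n = 9), 21.7 ± 1.15 in LS mice (n = 4) and 21.6 ± 2.47 in Ctrl mice (n = 7). Nmnat3, the mitochondrial enzyme, was lower in AL mice, which had 7.55, 8.24 and 10.5 CPM as lowest, median and highest values, than in Ctrl mice, which had 10.1, 13.5 and 20.1 CPM. Of the 9 AL mice, 8 lay below all 7 Ctrl mice, and AL9 overlapped them. LS1 to LS4 had 7.89, 14.7, 11.96 and 10.9 CPM, and 2 of 9 AL mice lay below all 4. The log2 fold change of Nmnat3 was -0.62 (SE 0.11) for AL against Ctrl, -0.48 (SE 0.13) for AL against LS and -0.14 (SE 0.14, edgeR FDR = 0.935) for LS against Ctrl. It was -0.53 (SE 0.13) against Ctrl within the first run and -0.77 (SE 0.22) within the second, and all AL mice lay below all Ctrl mice within each run. Without AL8 or without Ctrl7 the value against Ctrl was -0.57 and did not pass the threshold. The value against LS passed without LS1 (-0.63), with the liver genes as a covariate (-0.65) and without the 5 mice of highest Alb (-0.62). Per kilobase, Nmnat3 was 0.287 to 0.593 of Nmnat1 in Ctrl mice, 0.232 to 0.408 in LS mice and 0.197 to 0.307 in AL mice.

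In the fit of all mice, neither of the NAD kinases, which make NADP, passed the threshold in either comparison with AL mice. Nadk, the cytosolic kinase, had 27.4, 29.3 and 31.8 CPM as lowest, median and highest values in Ctrl mice and 23.6, 32.4 and 39.4 CPM in AL mice, while LS1 to LS4 had 32.2, 28.1, 28.95 and 30.6 CPM. Of the AL mice, 6 lay above all Ctrl mice and 1 (AL8) below them, and the log2 fold change was 0.09 (SE 0.07) against Ctrl and 0.15 (SE 0.08) against LS. The 4 AL mice of high Nmrk2 had 31.8 to 39.4 CPM of Nadk and the other 5 had 23.6 to 33.0 CPM, which overlap. After removal of the difference between runs they did not overlap, at 5.05 to 5.20 and 4.66 to 4.95 log2 CPM.

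Nadk2, the mitochondrial kinase (ENSMUSG00000022253, chromosome 15, 9071260 to 9110891), had 27.3, 57.9 and 70.7 CPM as lowest, median and highest values in AL mice and 45.04, 76.6 and 86.0 CPM in Ctrl mice. LS1 to LS4 had 77.3, 79.8, 79.9 and 87.5 CPM, above all 9 AL mice. The log2 fold change was -0.52 (SE 0.09) for AL against Ctrl, -0.46 (SE 0.10) for AL against LS and -0.06 (SE 0.12, edgeR FDR = 0.977) for LS against Ctrl. The overlap with Ctrl mice came from the second run, in which Nadk2 fell by 0.70 on the log2 scale (SE 0.10, edgeR FDR = 1.71e-05). Within the first run all 7 AL mice lay below all 4 Ctrl mice (-0.45, SE 0.08), and within the second both AL mice lay below all 3 Ctrl mice (-0.62, SE 0.23). The second entry of Nadk2 (ENSMUSG00000111527), which the annotation used here does not hold, had 0 to 84.9 counts, and 19 of 20 mice had estimated counts that were not whole in both entries. Its level rose by 2.38 in the second run (SE 0.63, edgeR FDR = 0.00458), opposite to the main entry. The log2 fold change of this second entry was -1.51 (SE 0.60) for AL against Ctrl and -1.28 (SE 0.73) for AL against LS. Against Ctrl it passed the threshold with DESeq2 (-1.51) and without Ctrl4 (-1.71), and the main entry passed with the liver genes as a covariate (-0.60). After the counts of both entries were summed, which was added after seeing the data, Nadk2 had a log2 fold change of -0.52 against Ctrl and of -0.46 against LS.

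Cd38, which encodes an NAD glycohydrolase of the cell surface and was the one enzyme of the list that consumes NAD, was higher in AL than in LS mice. LS1 to LS4 had 9.09, 9.34, 9.54 and 9.71 CPM, and AL mice had 10.3, 14.3 and 17.8 CPM as lowest, median and highest values, so that all 9 AL mice lay above all 4 LS mice. Ctrl mice had 8.68, 10.2 and 12.7 CPM, and 7 of 9 AL mice lay above all of them. These were the 7 AL mice of the first run, at 13.3 to 17.8 CPM, while AL8 and AL9 had 10.3 and 10.7 CPM among Ctrl mice of the second run at 8.68 to 12.7 CPM. The log2 fold change of Cd38 was 0.63 (SE 0.11) for AL against LS and 0.34 (SE 0.10) for AL against Ctrl. Within the first run it was 0.48 (SE 0.09) and within the second 0.04 (SE 0.25) against Ctrl, and the test of this difference between runs gave -0.49 (SE 0.21) with an edgeR FDR of 0.283. LS against Ctrl mice gave -0.29 (SE 0.13, edgeR FDR = 0.817). The difference between AL and LS mice did not pass the threshold with ComBat-seq (0.60) or with the liver or cardiomyocyte genes as a covariate (0.53 and 0.51).

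CD38 is abundant on leukocytes, and 12 macrophage genes set beside it had summed levels of 199 to 764 CPM in AL mice, 351 to 416 in LS mice and 234 to 492 in Ctrl mice, with Lyz2 the most abundant. Of these 12, 3 rose in AL against Ctrl mice and 2 rose against LS mice, with 0 that fell, where 4.1% and 5.86% of all genes rose. Of 8 tested T and NK cell genes and of 7 tested neutrophil genes, 0 rose or fell in either comparison. Of 8 B and plasma cell genes, 0 rose and 1 fell against Ctrl mice (Jchain, log2 fold change -2.44), and 0 rose or fell against LS mice. The part of leukocytes in the Cd38 values was not tested.

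By the threshold used here (FDR under 0.05 and an absolute log2 fold change of at least 0.58), 2 of the 11 entries passed for AL against Ctrl, Nmrk2 upward and Nmnat3 downward, where 7.81% of all 14477 tested genes passed (4.1% upward and 3.71% downward). For AL against LS, 2 of 11 passed, Nmrk2 and Cd38, both upward, where 8.9% of all genes passed (5.86% upward and 3.03% downward). Nothing is read from these shares, since these comparisons were in view when the genes were chosen. Nadk2 in both comparisons, Cd38 against Ctrl and Nmnat3 against LS had an FDR under 0.05 with a change smaller than 0.58. At that FDR and any size, 4 of 11 entries passed in each comparison, where 26.2% of all genes passed against Ctrl and 23.4% against LS. The median log2 fold change of the 11 entries was -0.06 against Ctrl and -0.07 against LS, beside 0.01 for all genes in both. AL mice are shared by both comparisons, so that these are not independent.

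Between LS and Ctrl mice, 0 of the 11 entries passed by edgeR, where 0.0207% of all genes passed, and 1 entry (Cd38) had an unadjusted p under 0.05, as did 5.94% of all genes. DESeq2 called 0 as well. Between runs, 3 of the 11 entries passed the threshold (Nadsyn1 and the second Nadk2 entry upward and Nadk2 downward), where 19.4% of all genes passed.

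**Figure D3:**
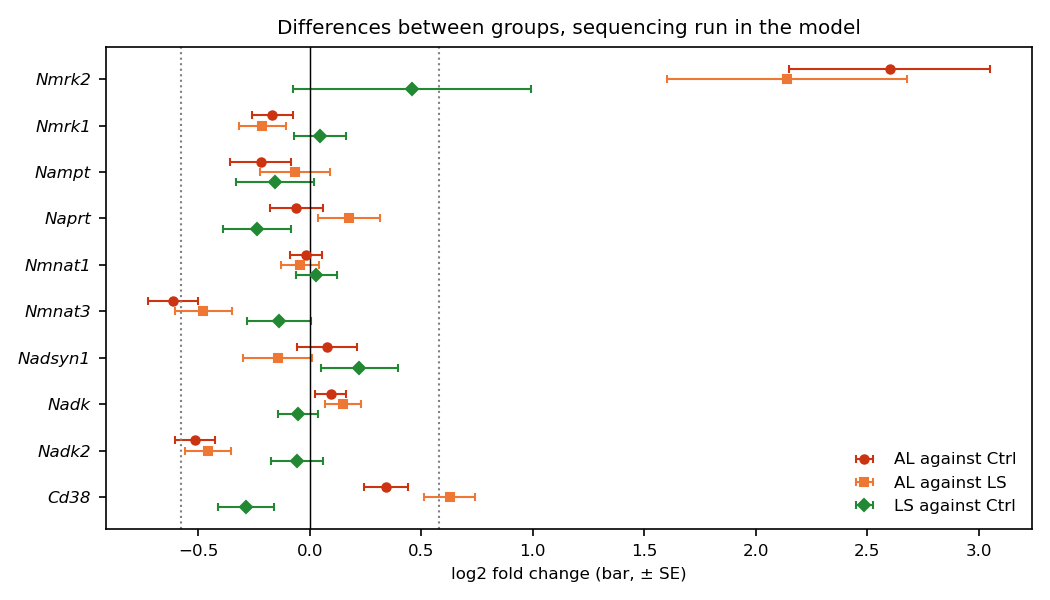
Log2 fold change (horizontal axis, bars ± SE) of the 10 genes in the 3 comparisons between groups, with sequencing run in the model. Dotted lines mark an absolute log2 fold change of 0.58, and Nmrk2 stands at 2.60 and 2.14 in the comparisons with AL mice and at 0.46 in LS against Ctrl mice.

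In Ctrl mice the order of levels per kilobase of exon was Nampt (65.4), Nadk2 (13.7), Nadk (7.86), Nmnat1 (7.10), Naprt (3.67), Nmnat3 (2.86), Cd38 (2.75), Nmrk2 (1.89), Nadsyn1 (1.10) and Nmrk1 (0.80 CPM per kilobase). Nampt lay above Nadk2, Nadk2 above Nadk, and Nmnat1 above Naprt, in all Ctrl mice, whereas the ranges of Nadk and Nmnat1, of Naprt, Nmnat3, Cd38 and Nmrk2, and of Nmrk2, Nadsyn1 and Nmrk1 overlapped between neighbours. In AL mice Nmrk2 had 11.8 ± 8.94 CPM per kilobase (SD, n = 9), beside 10.6 ± 2.57 of Nadk2 and 57.9 ± 13.4 of Nampt. Nmrk2 lay above Nadk2 in 4 of the 9 AL mice, while the other 5 had 5.03 to 5.99 CPM per kilobase of Nmrk2 and 8.13 to 13.8 of Nadk2.

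Nmrk2 shares 270 exon bases with the antisense gene Atcayos on the other strand, and the authors counted with the strand set. Atcayos had 15.9 to 43.6 CPM in AL mice and 27.1 to 62.4 CPM in LS and Ctrl mice. All 20 estimated counts of Nmrk2 were whole, from 23 to 3677.

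Genes of other muscle were set beside Nmrk2. The 10 skeletal muscle genes had summed levels of 2.51 to 6.27 CPM in AL mice, 1.70 to 2.28 in LS mice and 1.32 to 2.76 in Ctrl mice, far below cardiomyocyte genes, and 2 of the 5 tested rose in AL against Ctrl mice and 1 against LS mice. Myh4 was at 0 in all LS mice. Of 4 tested atrial genes, 3 rose in AL against Ctrl mice and 1 against LS mice, with Nppa, the natriuretic peptide of the atria and of stressed ventricles, at 519 ± 284 CPM in AL mice (SD, n = 9), 241 ± 128 in LS mice (n = 4) and 77.7 ± 46.9 in Ctrl mice (n = 7). Summed levels of the atrial genes were 197 to 1007 CPM in AL mice, 181 to 476 in LS mice and 67.1 to 199 in Ctrl mice, and 0 of the 4 passed for LS against Ctrl. Of 14 tested genes of cardiac stress, 4 rose in AL against Ctrl mice and 1 against LS mice, and of 12 cardiomyocyte genes 0 passed the threshold in either. Nppa is in both the atrial and the cardiac stress list. Beside the counts of all these lists, 4.1% of all genes rose against Ctrl and 5.86% against LS. Summed levels of the cardiomyocyte genes were lower in all 7 AL mice of the first run, at 57218 to 69264 CPM, than in the 8 LS and Ctrl mice of that run, at 70471 to 82396 CPM. In the second run, AL mice had 73490 and 91337 CPM and Ctrl mice 85339 to 92495 CPM. Myh6, the main myosin heavy chain of the adult mouse heart, had a log2 fold change of -0.33 against Ctrl mice (edgeR FDR = 0.0225). With the mean of the cardiomyocyte genes as a covariate, the log2 fold change of Nmrk2 was 1.96 against Ctrl mice and 1.03 against LS mice, where it no longer passed the threshold. The covariate was the mean log2 CPM of the 12 genes and not their sum, to which Myh6 gave the most. The median log2 fold change of the 12 was -0.05 against Ctrl and -0.13 against LS mice. Values of the covariate by mouse are not given, so the part of these genes is not separated here from that of group. The part of these cells in the Nmrk2 values was not tested.

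The genes most like Nmrk2 were ranked by Pearson's r of log2 CPM, after removal of the difference between runs, over 12220 genes of at least 1 CPM on average. Over the 20 mice they were Plp2 (0.92), Ap3d1 (0.90), Mfge8 (0.90), Pdlim3 (0.90), Tpm2 (0.90), Efnb1 (0.90), Ppib (0.89) and Tex264 (0.89), beside a median r of -0.01 and a 95th percentile of 0.69 for all genes. Tpm2, a tropomyosin, averaged 18.4 CPM in AL, 9.41 in LS and 9.40 in Ctrl mice, and Pdlim3, a protein of the Z-line, 12.9, 7.59 and 6.25 CPM. After centring within AL, LS and Ctrl mice, the 8 genes were others, namely Slc6a9 (0.84), Sdcbp2 (0.79), Ccnk (0.78), Cd9 (0.78), Snx18 (0.78), Plod3 (0.77), Hyal2 (0.77) and Atf5 (0.77), beside a 95th percentile of 0.52. On this second measure Nampt had an r of -0.65 and Nadk of 0.67 with Nmrk2 over the 20 mice. These are descriptions over mice that share runs, both measures hold the separate clusters of AL mice, and the first ranking carries the difference between groups.

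The rest of NAD metabolism was described with 53 further genes grouped by role, of which 48 were tested. The others, Acmsd, Ido2, Sarm1, Slc22a13 and Slc5a8, had at most 20, 12, 9, 7.62 and 21 counts in any mouse. By edgeR, 4 of the 48 passed the threshold for AL against Ctrl (8.33%, 1 upward and 3 downward) and 6 for AL against LS (12.5%, 3 upward and 3 downward). These shares stand beside 7.81% and 8.9% of all genes, and 0 of 48 passed for LS against Ctrl, where 2 had an unadjusted p under 0.05, beside 5.94% of all genes, and DESeq2 also called 0. At an FDR under 0.05 of any size, 7 of the 48 rose and 10 fell in each comparison with AL mice, where 10.7% of all genes rose and 15.4% fell against Ctrl, and 9.78% rose and 13.6% fell against LS. The median log2 fold change of the 48 was 0.03 against Ctrl and 0.06 against LS.

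The de novo route from tryptophan held the largest falls. Tdo2, which opens this route in the liver, had 4.23, 0.228, 4.14 and 1.63 CPM in Ctrl1 to Ctrl4 and 0 in Ctrl5 to Ctrl7 (where 3 counts correspond to at most 0.299 CPM), 2.60, 0.147, 2.32 and 0.193 CPM in LS1 to LS4, and at most 0.462 CPM in AL mice. It fell by 4.85 on the log2 scale against Ctrl mice (SE 1.07, edgeR FDR = 0.00461) and by 3.90 against LS mice (SE 1.06, FDR = 0.0167). Haao, a later enzyme of the route, fell by 2.34 against Ctrl mice (SE 0.76, edgeR FDR = 0.0286), with 1.49, 0.228, 1.47 and 0.631 CPM in Ctrl1 to Ctrl4 and at most 0.261 CPM in AL mice. The mice of high Tdo2 and Haao were those of high Alb. Of 12 liver genes, 12 fell in AL against Ctrl mice and 10 against LS mice, where 3.71% and 3.03% of all genes fell. Without those 5 mice, which leaves Ctrl2 as the only Ctrl mouse of the first run, the log2 fold change against Ctrl was -1.37 for Tdo2 and 0.05 for Haao. Neither passed the threshold. Haao also did not pass without AL1, AL5, Ctrl1 or Ctrl3 (-2.28, -2.19, -1.99 and -2.01), nor Tdo2 against LS without LS1 or LS3 (-3.34 and -3.47). With the cardiomyocyte genes as a covariate, Haao against Ctrl (-1.92) and Tdo2 against LS (-4.62) did not pass either.

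Hddc3, an NADPH phosphatase, fell by 1.06 against Ctrl mice (SE 0.25, edgeR FDR = 0.00477) and by 1.94 against LS mice (SE 0.28, FDR = 0.000454). Its levels lay apart within AL and Ctrl mice. AL1 to AL8 had 2.91 to 3.67 CPM and Ctrl2 had 2.61 CPM, while AL9 had 12.2 CPM and the other 6 Ctrl and all 4 LS mice had 8.28 to 19.7 CPM. No mouse lay between 3.67 and 8.28 CPM. Without the 5 mice of highest Alb, the log2 fold change against Ctrl was -0.34 and did not pass. That fit keeps Ctrl2, of low Hddc3, as the only Ctrl mouse of the first run, so it cannot show a part of liver RNA.

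Nnmt, which methylates nicotinamide for clearance, rose by 0.89 against Ctrl mice (SE 0.26, edgeR FDR = 0.0193), with 7 of 9 AL mice above all Ctrl mice, at 3.77 ± 1.51 CPM in AL (SD, n = 9) and 1.98 ± 0.704 in Ctrl mice (n = 7). Without AL9 the value was 0.57, with the cardiomyocyte genes as a covariate 0.33 and without the 5 mice of highest Alb 0.91 (SE 0.38). Nnmt did not pass the threshold in any of these. Sirt7, a nuclear sirtuin, rose by 0.76 against LS mice (SE 0.12, edgeR FDR = 0.000537), with all 9 AL mice, at 6.78 to 11.5 CPM, above the LS mice at 4.26 to 4.80 CPM. Against Ctrl mice, at 4.21 to 9.55 CPM, Sirt7 had a log2 fold change of 0.46 (SE 0.10, FDR = 0.00273), and it was higher in the second run by 0.67 (SE 0.10, FDR = 3.91e-05).

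Against LS mice, Nmnat2, the form of the Nmnat enzymes in neurons, rose by 1.22 (SE 0.37, edgeR FDR = 0.0232) and Slc12a8, described as a transporter of nicotinamide mononucleotide, by 0.91 (SE 0.29, FDR = 0.0308), both from means under 1 CPM. Nt5e, which makes nicotinamide riboside from the mononucleotide outside cells, fell by 0.64 (SE 0.23, edgeR FDR = 0.0452), from 30.5 ± 5.89 CPM in LS mice (SD, n = 4) to 19.1 ± 3.90 in AL mice (n = 9). All 9 AL mice lay below the LS mice in Nt5e, but it had 21.3 ± 8.39 CPM in Ctrl mice (n = 7) and a log2 fold change of -0.20 against them (SE 0.19, FDR = 0.455). Without LS1 or without LS3, which had high Alb, Nmnat2, Slc12a8 and Nt5e did not pass, at 1.09 and 1.10, 0.83 and 0.74, and -0.53 and -0.68. Slc12a8 also did not pass without AL1 or AL2 (0.84 and 0.80), and Nt5e did not pass in 11 of the 20 fits that left out a mouse. With ComBat-seq, with the liver or the cardiomyocyte genes as a covariate, and without the 5 mice of highest Alb, none of these 3 genes passed.

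Of the consumers, 0 of the 15 PARP genes and 0 of the 7 sirtuins passed the threshold against Ctrl mice, where 7.81% of all genes did. At an FDR under 0.05 of smaller size, Parp1, Parp4, Tnks and Tnks2 fell and Parp6 and Parp16 rose, and Sirt4 and Sirt7 rose and Sirt5 fell. These were 6 of 15 PARP genes and 3 of 7 sirtuins, where 26.2% of all genes had such an FDR at any size. Log2 fold changes of the PARP genes lay between -0.51 and 0.36 and those of the sirtuins between -0.37 and 0.46.

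**Figure D4:**
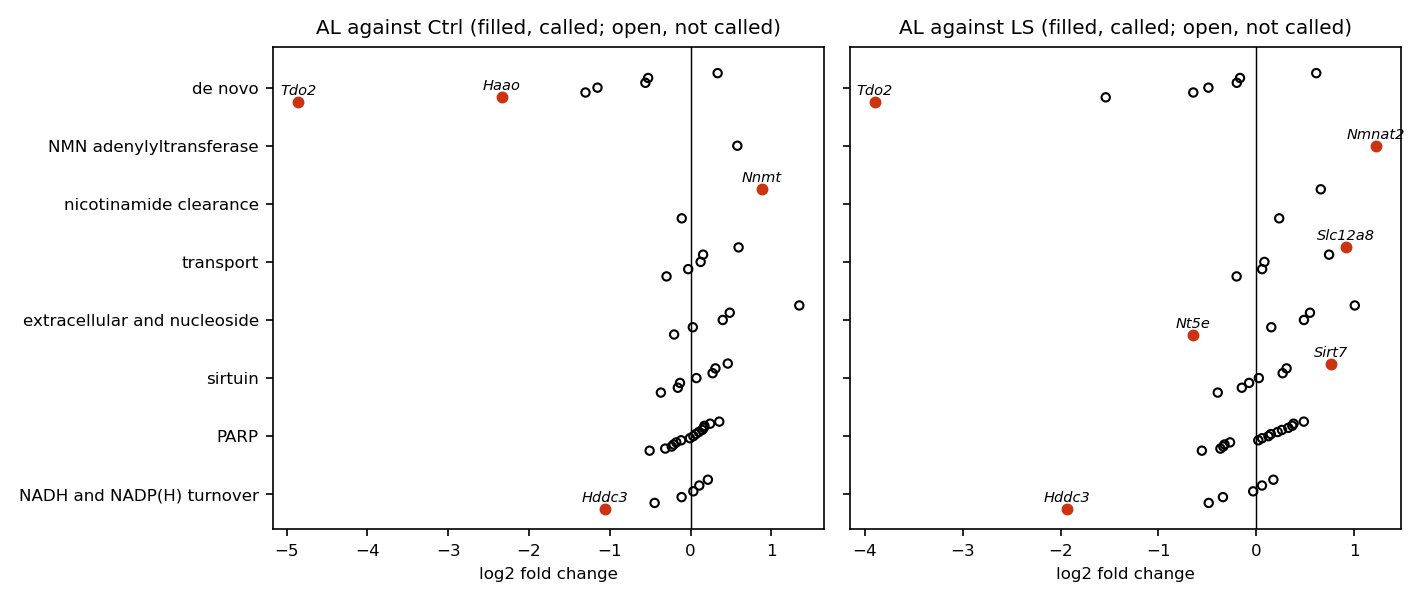
Log2 fold change (horizontal axes) of the 48 tested further NAD genes in AL against Ctrl (left) and AL against LS mice (right), in rows by role. Filled points passed the threshold and are named, open points did not. Tdo2 lies at -4.85 and -3.90, and the PARP genes lie between -0.51 and 0.36 (left) and between -0.56 and 0.49 (right).

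Mitochondria take part in NADH exchange through shuttles. Of 12 shuttle genes, 0 rose and 1 fell in either comparison with AL mice, where 3.71% of all genes fell against Ctrl and 3.03% against LS. Their median log2 fold change was -0.15 against Ctrl and -0.24 against LS. Mdh1, the most abundant, averaged 1936 CPM in AL, 2521 in LS and 2122 in Ctrl mice.

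**Figure D5:**
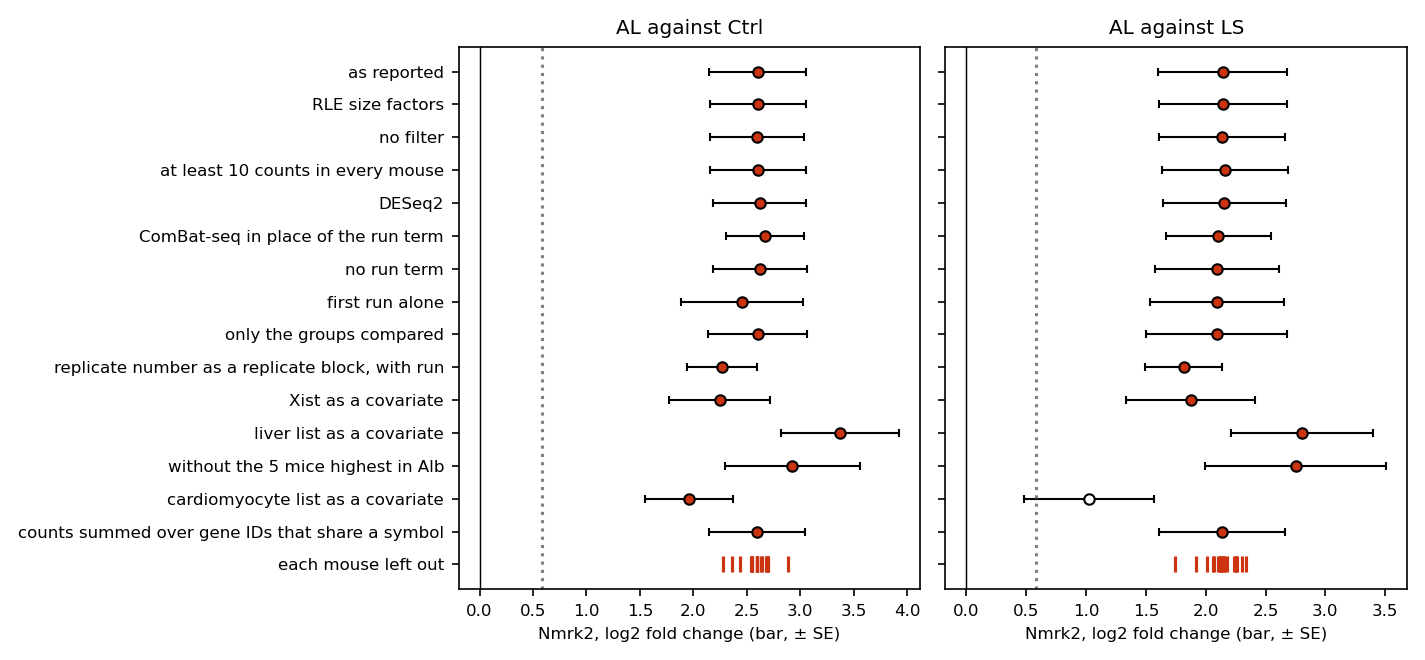
Log2 fold change of Nmrk2 (horizontal axes, bars ± SE) in AL against Ctrl (left) and AL against LS mice (right) as reported and under each alternative. Filled points passed the threshold, and ticks in the bottom row are the values with each mouse left out, 2.28 to 2.88 and 1.74 to 2.33. The open point is the value with the cardiomyocyte genes as a covariate against LS mice, at 1.03.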

How the data were processed

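Poly(A) RNA of the heart apex of 20 mice was sequenced in 2 runs as stranded paired-end libraries. The authors mapped reads with STAR (build GRCm38), estimated gene counts by Salmon within nf-core/rnaseq as reverse stranded, and deposited 1 table of these estimated counts for 25308 genes. Its values were neither normalized nor adjusted for run. Of these values, 14.2% were not whole, and all were rounded to whole numbers here. Groups came from the sample labels. The split into runs goes with the library names, which begin with SCoeur in the first run only, and with the total counts. The paper's text does not list the mice of each run. Whether mice of a group were littermates is not given in the sources used here.

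With edgeR 4.0.16, filterByExpr at a minimum count of 10 kept 14477 genes, which were scaled by TMM and tested with the quasi-likelihood test (glmQLFit, glmQLFTest) in R 4.3.3, with group and run in the model and all mice in 1 fit. FDR is the Benjamini-Hochberg adjusted p over all tested genes, from two-sided tests, and standard errors come from the F statistic. A gene passed at an FDR under 0.05 with an absolute log2 fold change of at least 0.58. Log2 CPM used a prior count of 2, and limma 3.58.1 removed the run difference for correlations. Counting floors cover counting error only. Exon lengths are merged exons of GENCODE M21 (GRCm38), and 97.4% of the listed genes were matched to it. The fit was tested on simulated data.

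The members and lists were chosen with earlier results of these data known. Named genes are the 10 members, the further NAD genes that passed in at least 1 comparison, the 8 genes most like Nmrk2 over all mice and the 8 most like it within groups, and up to 3 of the most abundant genes of each other list. PARP and sirtuin genes of smaller change, Myh4 and Atcayos were named, and levels of Xist given, after their values were seen. Alternatives were RLE factors, no filter, at least 10 counts in every mouse, DESeq2 1.42.0, counts adjusted by ComBat-seq (sva 3.50.0), a model without run, mice of the first run, only the groups compared, the replicate number as a block, 3 covariates (Xist, liver genes, cardiomyocyte genes), leaving out the 5 mice of highest Alb, and each mouse left out. Without the 5 mice of highest Alb, Ctrl2 was the only Ctrl mouse left in the first run. Summed counts of entries that share a symbol and the search for the TATA box were added after seeing the data. Columns of authors' comparisons were not present in the table used.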

Additional observations from a re-analysis of the deposited data

Results flagged for a closer look

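Single mice far from the rest of their group were looked for in the CPM of 33 groups of the 10 genes and 24 groups of the further NAD genes named, by Dixon's ratio of the gap to the range. Chance flags about 1 in 20 groups, and 5 were flagged. Nmrk2 stood apart in AL1, at 58.1 CPM, with 33.9 CPM in the next AL mouse. Nadsyn1 stood apart in AL8, a mouse of the second run, at 6.16 CPM, with 3.62 CPM in the next AL mouse. Tdo2 stood apart in AL6, at 0.462 CPM, with 0.0656 CPM in the next AL mouse. Hddc3 stood apart in AL9, at 12.2 CPM, with 3.67 CPM in the next AL mouse, and in LS2, at 19.7 CPM, with 10.5 CPM in the next LS mouse.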

How the results depend on the processing

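The log2 fold change of Nmrk2 for AL against Ctrl was 1.96 to 3.37 under 14 alternatives and 2.28 to 2.88 with each mouse left out. For AL against LS it was 1.74 to 2.33 with each mouse left out, and with the cardiomyocyte genes as a covariate it was 1.03 and did not pass the threshold. Nmrk2 was chosen from these comparisons, so that these ranges describe the values and are no support for them. Among the 10 genes, 2 passed for AL against Ctrl, but 1 did in the first run alone, with the cardiomyocyte covariate and with the replicate block, where Nmnat3 was under the fold threshold. Nadk2 passed as well with the liver covariate, and its second entry with DESeq2. With each mouse left out 1 to 3 passed (1 without AL8 or Ctrl7, 3 without Ctrl4). For AL against LS, 1 passed with ComBat-seq and 0 with the cardiomyocyte covariate. Nmnat3 passed against LS with the liver covariate, without the 5 mice of highest Alb and without LS1. Numbers shared by mice of different groups were not taken as pairs in the reported fit. Deviations correlated above 0.1 in 4 of 15 pairs of the same number (-0.23 to 0.29). Mice of different numbers were not compared, so this cannot show whether the numbers pair mice. The replicate block left 851 genes for AL against Ctrl and 1228 for AL against LS, and with it Hddc3 (-1.14) and Nnmt (0.70) did not pass against Ctrl.

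Of the further NAD genes, 4 passed for AL against Ctrl, but 7 in the first run alone, 2 with at least 10 counts in every mouse, 2 with the cardiomyocyte covariate and 0 without the 5 mice of highest Alb. For AL against LS, 6 passed, but 3 with at least 10 counts in every mouse, with ComBat-seq and without those 5 mice, 2 with the cardiomyocyte covariate, and 2 to 7 with each mouse left out (2 without LS1, 3 without LS3). With the liver genes as a covariate the log2 fold change against Ctrl turned to 1.99 for Haao and 0.27 for Tdo2, and without the 5 mice that of Haao was 0.049. Among all genes, AL against Ctrl fell from 1130 calls to 587 with at least 10 counts in every mouse, to 502 without those 5 mice and to 631 with the cardiomyocyte covariate. AL against LS fell from 1288 calls to 648 with ComBat-seq, 473 without the 5 mice and 248 with the cardiomyocyte covariate. LS against Ctrl had 3 calls, 21 by DESeq2 and 6 with ComBat-seq. The cause was not tested, other than fewer genes or mice where these were left out.

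The low depth of the 5 mice of the second run limits what it shows on its own. Signs of members that did not pass changed under some alternatives, most often Nmnat1 against Ctrl (7 times).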
